A study of Rattus norvegicus with 56 samples.

Results

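Of the 56 arrays of cultured rat hippocampal neurons, 15 carry a sample number with the letter D in front of it, and these D arrays were compared with the arrays whose sample number is plain. The letter alone assigned an array to either side. A plain number was carried by 41 arrays. The scanner software marked the spot grid of 1 of them (1 Hz, 2 h, replicate 2) as not good, and without it 40 numbered arrays and 55 arrays in all entered the comparison. Neither the labels nor the methods say what the letter stands for, and they do not say that the D samples came from a separate preparation of cells.

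Every culture came from hippocampi of E18 Sprague-Dawley rat embryos and was kept in Neurobasal medium with B27, a serum-free mixture used to favour neurons. The dishes stood on an inverted coil and received repetitive transcranial magnetic stimulation (rTMS) at 1 Hz or as iTBS, an intermittent theta burst pattern of brief trains at high frequency. Sham dishes were kept in the incubator with the coil moved away from them. RNA was prepared directly after stimulation (0 h) or 2, 8, 24 or 48 h later. The D arrays held 1 array of each of the 15 groups of arm (sham, 1 Hz or iTBS) and time, and no untreated control. The numbered arrays held the same groups and 4 untreated control arrays at 0 h, which made 16 groups, and their numbers formed 3 runs: 1 to 18 with 11 arrays, 22 to 36 with 12 arrays and 37 to 54 with 17 arrays. D arrays lay on all 7 slides, 2 or 3 to a slide, in the order of their times. Each run of numbers had slides of its own. How many embryos or litters stood behind a dish is not given in the sources used here. The 15 D arrays share 1 series of sample numbers, D is 1 of 4 such series, and at that level the smallest two-sided exact p is 0.5. The p-values given here therefore measure the spread among arrays within the groups.

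Dissociated embryonic hippocampus gives excitatory neurons and inhibitory interneurons, and it also carries over cells that are not neurons. Radial glia and glial progenitors divide in culture and give astrocytes and oligodendrocyte progenitors, and the latter stop dividing when they become myelin-forming oligodendrocytes. Fibroblasts come from the meninges, the membranes around the brain, ependymal cells and choroid plexus from the ventricle wall, and microglia from the blood-forming lineage. Markers of all of these cells were compared between the D and the numbered arrays. In RNA from whole dishes, fewer cells of a type and less RNA per cell cannot be told apart.

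The level of a gene is its log2 signal, brought to the same mean and spread on every array, so that 0 stands for the average probe and differences read as log2 units (scaled log2). Levels are compared only within a probe. Each difference is D minus numbered, adjusted for the group of arm and time, with its standard error (SE) and a two-sided p from limma adjusted by the Benjamini-Hochberg method, and a probe passed the test at an adjusted p under 0.05. Between 70.7% and 81.8% of spots were well above background on the D arrays and between 66.1% and 75.8% on the numbered arrays, so these ranges overlapped and the D range reached higher. The defining neuronal markers Rbfox3 and Map2 were well above background on all 55 arrays. The number of arrays limits the precision of every value.

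The D arrays differed from the numbered arrays in much of what was measured. Of 35699 probes tested, 16992 passed (47.6%), 9247 of them higher and 7745 lower in D, and 2946 passed with a difference of at least 1 on the scaled log2 scale (8.25%). Counted over the 13893 genes, each by its brightest probe, 51.8% passed, 28.9% higher and 22.9% lower in D. A difference of at least 1 was passed by 5.93% of genes upward and by 3.36% downward, and the median difference over all genes was 0.05. For 285 genes (2.05%), the levels of the D and the numbered arrays did not overlap, with D above in 106 of them and below in 179. D lay above all 3 runs in 4568 genes, below all 3 in 3985 and on different sides of them in 5340. The first principal component, which held 21.0% of the variance, ran from −112 to −37.1 on the D arrays and from −10.4 to 63.3 on the numbered arrays, so the ranges lay apart. When the run of numbers was entered as a random block, with an estimated correlation of 0.265 between arrays of a run, 3738 probes passed and 2040 of them had a difference of at least 1. Over genes, 12.9% passed in that fit. Its counts are given beside each gene list as the counts with the run block. Unless a share is repeated, counts of a list stand against these 28.9% higher and 22.9% lower and, with the run block, 12.9%. Counts of members that differed by at least 1 stand against 5.93% higher and 3.36% lower.

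**Figure D1:**
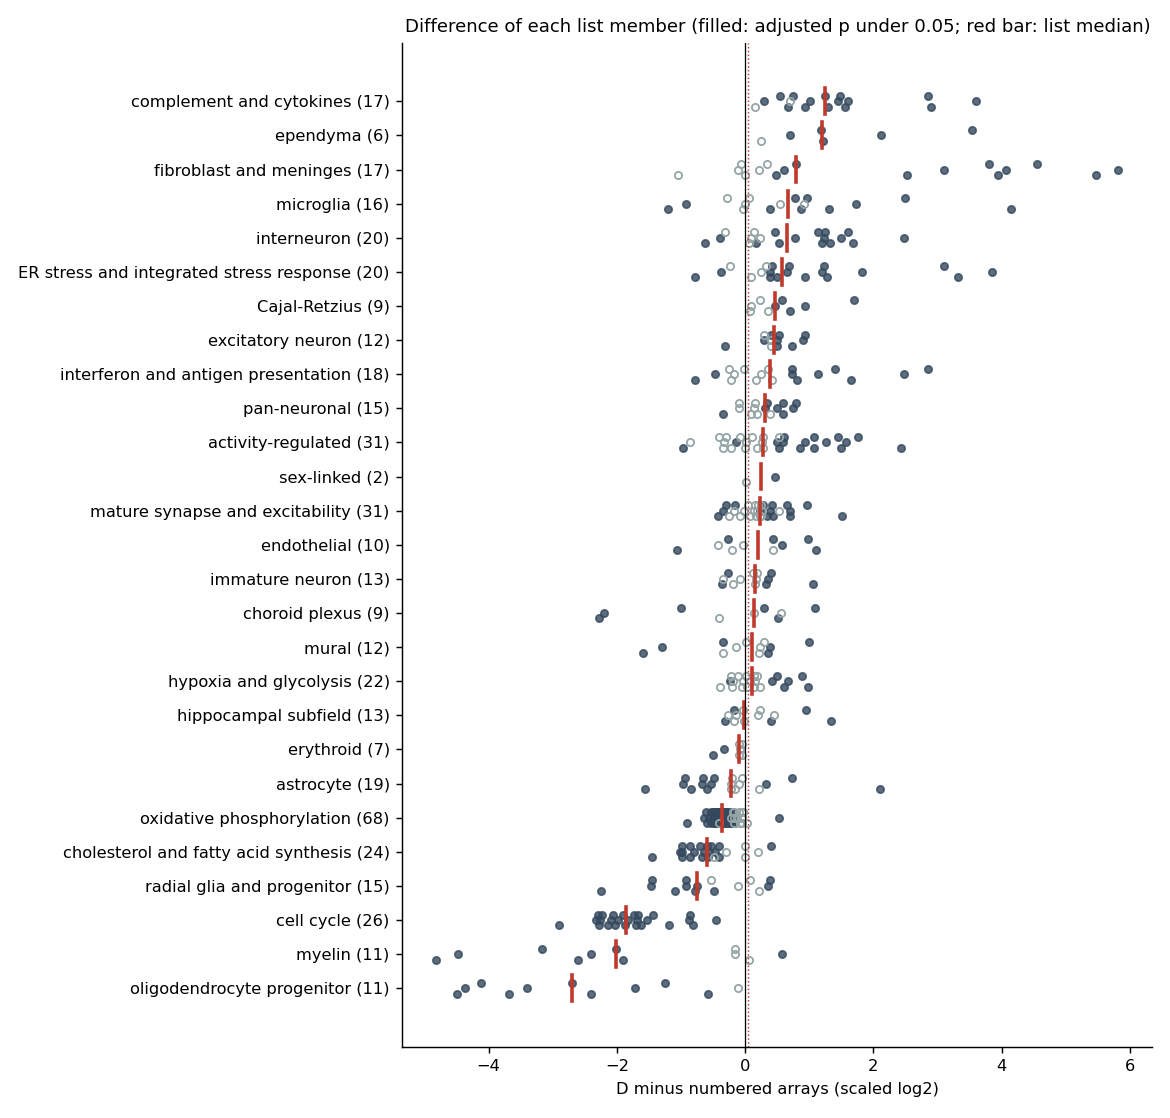
Difference of each gene of 27 lists between D and numbered arrays (x axis, scaled log2, D minus numbered), with the number of genes tested in parentheses. Filled points passed the test at an adjusted p under 0.05, open points did not, red bars are list medians and the dotted line is the median over all genes. The lists of oligodendrocyte progenitors, myelin and cell cycle lie lowest, at medians of −2.70, −2.02 and −1.86, and those of complement and cytokines and of ependyma highest, at 1.25 and 1.20, of which the former was 0.28 after normexp and quantile normalization.

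Genes of oligodendrocyte progenitors were lower on the D arrays. Of the 11 genes tested, 10 were lower, against 22.9% of all genes, and none was higher, with a median difference of −2.70, and 9 were lower with the run block. The mean level of the list, given as the lowest, median and highest array, was 1.67, 2.24 and 3.38 on the D arrays and 3.65, 4.93 and 5.56 on the numbered arrays. Every D array lay below every numbered array.

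Pdgfra, the growth factor receptor that defines these progenitors, had a lowest, median and highest level of 3.87, 4.78 and 6.28 on the D arrays and of 6.87, 8.19 and 9.39 on the numbered arrays. The groups did not overlap, and the difference was −3.41 (SE 0.17, adjusted p = 9.82e-20), or 10.6-fold lower in D. Olig2, a transcription factor of the whole lineage, ran at 5.04, 5.67 and 7.01 on the D arrays against 7.72, 8.10 and 8.70, again without overlap, with a difference of −2.41 (SE 0.09, adjusted p = 2.45e-23). Matn4, a matrix protein, differed by −4.50 (SE 0.27, adjusted p = 1.26e-17) and was well above background on only 4 of the 15 D arrays. Bcas1, found in newly forming oligodendrocytes, differed by −4.37 (SE 0.30, adjusted p = 1.35e-15). Neu4, a sialidase, was not well above background on any D array and was so on all 40 numbered arrays, where it was at least 10.1-fold higher (adjusted p = 1.17e-18). The bound sets the numbered mean against the dimmest signal well above background on each D array, or the gene's own signal where that was higher. Neu4 entered the tests only through numbered arrays, so its p is no independent support. The other members differed by −3.68 for Sox10, −2.70 for Cspg4, −1.71 for Olig1, −1.25 for C1ql1 and −0.57 for Gpr17, which all passed, and by −0.10 for Vcan (adjusted p = 0.444), which is made by many other cells too.

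Genes of myelin were also lower on the D arrays, but here the numbered runs differed widely among themselves. Of 11 genes tested, 7 were lower and 1 was higher, with a median of −2.02, and 7 were lower and none higher with the run block. Against the single runs the list median was −0.22 for numbers 1 to 18, −1.71 for 22 to 36 and −3.59 for 37 to 54. Mbp, a major protein of compact myelin, had a level of 1.91, 2.56 and 2.98 (lowest, median and highest) on the D arrays, 1.83, 4.62 and 6.49 in numbers 1 to 18, 5.39, 6.36 and 8.01 in 22 to 36 and 7.31, 9.29 and 9.91 in 37 to 54. The D arrays were narrowly spread at the low end, inside the range of the first run and below every array of the other runs. The overall difference of Mbp was −4.48 (SE 0.66, adjusted p = 3.43e-07). Cldn11, a tight junction protein of the myelin sheath, differed by −4.81 (SE 0.64, adjusted p = 5.26e-08), Ugt8, which makes the myelin lipid galactosylceramide, by −3.17 (SE 0.30, adjusted p = 1.25e-11), and Myrf, the transcription factor that switches on myelin genes, by −2.61 (SE 0.40, adjusted p = 8.62e-07). Ugt8 was the member whose D and numbered levels did not overlap. The member that was higher in D was Ermn, a cytoskeletal protein of mature oligodendrocytes (adjusted p = 0.0302). It was well above background on 5 D arrays and on no numbered array. Its mean over all 15 D arrays was 1.09-fold above the bound for the numbered arrays, set as for Neu4. Ermn entered the tests only through D arrays, so its p is no independent support. No myelin gene was higher in the arrays of 0, 2 and 8 h alone, in those of 24 and 48 h alone, or with the signals scaled by the 75th percentile, by quantiles or after normexp.

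All 26 cell cycle genes tested were lower on the D arrays, with a median of −1.86. Of these, 22 were lower by at least 1, against 3.36% of all genes. With the run block, 25 were lower. The list median was −1.97, −1.84 and −1.75 against the runs 1 to 18, 22 to 36 and 37 to 54, so it varied little with the run, and every member was below each run. For 16 of the members, the D and numbered levels did not overlap, against 2.05% of all genes. Mki67, the proliferation antigen Ki-67, had a level of 2.83, 3.92 and 4.78 (lowest, median and highest) on the D arrays and of 4.97, 5.92 and 6.70 on the numbered arrays. Its groups lay apart, with a difference of −2.09 (SE 0.12, adjusted p = 4.65e-18), or 4.25-fold lower. Rrm2, the small subunit of ribonucleotide reductase that supplies building blocks of DNA, stood at 3.17, 4.29 and 5.27 against 5.93, 7.13 and 7.85, the widest gap of the list, and differed by −2.90 (SE 0.15, adjusted p = 1.82e-19). Nusap1, a protein of the mitotic spindle, differed by −2.32 (SE 0.16, adjusted p = 2.45e-15), and Kif11, the motor that separates the spindle poles, by −2.30 (SE 0.15, adjusted p = 5.43e-16). The replication helicase subunits Mcm3, Mcm2, Mcm6, Mcm4 and Mcm7 ranged from −2.27 for Mcm3 to −0.82 for Mcm7, and the member with the smallest difference was Tyms, at −0.45. The mean level of the list had a median of 2.80 on the D arrays of 0, 2 and 8 h and of 2.22 on those of 24 and 48 h.

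Many cell cycle genes share promoter elements, a CCAAT box bound by the factor NF-Y and the cell cycle homology region, TTTGAA, bound by repressor complexes in resting cells. The windows of Mki67 and Nusap1 are shown because both genes were among the lowest of the list on the D arrays, and because they hold both elements. Each is RefSeq's window of 300 bases around the gene's start on build GRCr8, most of it upstream, written 5′ to 3′ on the gene's strand. Capitals mark CCAAT and TTTGAA on either strand, and in Mki67 the second TTTGAA shares its last base with a CCAAT of the opposite strand. Mki67 lies at chr1:199952544-199952843 on the minus strand, and Nusap1 at chr3:127057045-127057344 on the plus strand.
Mki67: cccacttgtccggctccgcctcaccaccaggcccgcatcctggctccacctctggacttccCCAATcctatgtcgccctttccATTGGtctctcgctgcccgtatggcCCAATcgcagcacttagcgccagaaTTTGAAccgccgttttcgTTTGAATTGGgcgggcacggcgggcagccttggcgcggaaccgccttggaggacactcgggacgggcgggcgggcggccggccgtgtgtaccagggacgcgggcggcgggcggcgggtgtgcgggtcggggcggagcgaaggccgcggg
Nusap1: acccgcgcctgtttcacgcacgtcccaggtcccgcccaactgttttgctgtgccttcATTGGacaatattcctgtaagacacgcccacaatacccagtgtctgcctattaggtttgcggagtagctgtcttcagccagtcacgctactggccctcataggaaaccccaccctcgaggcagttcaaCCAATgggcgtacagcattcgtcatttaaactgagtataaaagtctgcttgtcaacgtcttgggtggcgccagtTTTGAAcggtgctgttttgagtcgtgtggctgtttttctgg
The Mki67 window holds 4 CCAAT boxes and 2 copies of TTTGAA, and that of Nusap1 holds 2 and 1. Over all 27457 promoter windows of that length, 37.74% hold CCAAT, 18.07% hold TTTGAA and 7.25% hold both, on either strand. Windows were found for 20 of the 26 cell cycle genes, fewer than 80%, so no share is given over the list.

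Radial glia and progenitor genes were mostly lower on the D arrays, with 9 of 15 lower, 2 higher and a median of −0.76, and 7 lower with the run block. The list median was 0.03 against numbers 1 to 18, −0.72 against 22 to 36 and −0.67 against 37 to 54. Notch1, the receptor that keeps progenitors undifferentiated, had levels of 4.81, 5.03 and 5.34 on the D arrays and 5.60, 6.54 and 7.18 on the numbered arrays (lowest, median and highest), with no overlap and a difference of −1.47 (SE 0.09, adjusted p = 1.08e-17). Its target Hes5 differed by −2.24 (SE 0.36, adjusted p = 2.31e-06). Nes, the intermediate filament nestin, differed by −1.09 (SE 0.18, adjusted p = 2.45e-06), and Fabp7, a fatty acid carrier of radial glia, by −0.92 (SE 0.13, adjusted p = 2.79e-07). For Id3, an inhibitor of differentiation, the difference of −1.45 (SE 0.40, adjusted p = 0.00261) was 0.03 against numbers 1 to 18 and −2.60 against 37 to 54, and it did not pass with the run block (adjusted p = 0.258). The members that were higher were Vim (0.40), which fibroblasts make too, and Hes1 (0.35).

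Astrocyte genes differed in both directions. Of 19 tested, 3 were higher and 9 lower, with a median of −0.22, and 2 were higher and 4 lower with the run block. Gfap, the filament protein that is strongly made by reactive astrocytes, was higher at 4.59, 5.19 and 7.03 (lowest, median and highest) against 0.83, 3.38 and 5.40. The ranges overlapped, but D was above the numbered mean in each of the 15 groups of arm and time, and the difference was 2.10 (SE 0.21, adjusted p = 6.60e-11). Aqp4, the water channel of astrocyte endfeet, differed by 0.21 (SE 0.18, adjusted p = 0.342) and did not pass. Aldh1l1, an enzyme of folate metabolism found in most astrocytes, stood at 2.58, 3.16 and 3.68 on the D arrays against 3.42, 4.83 and 5.39, a difference of −1.56 (SE 0.13, adjusted p = 3.01e-13). Sox9, a transcription factor of glia, was lower without overlap of the groups (−0.93, SE 0.10, adjusted p = 1.47e-10), and Fgfr3 differed by −0.97 (SE 0.29, adjusted p = 0.00499), which did not pass with the run block (adjusted p = 0.471). Gfap and Aldh1l1 thus differed in opposite directions on the same arrays.

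**Figure D2:**
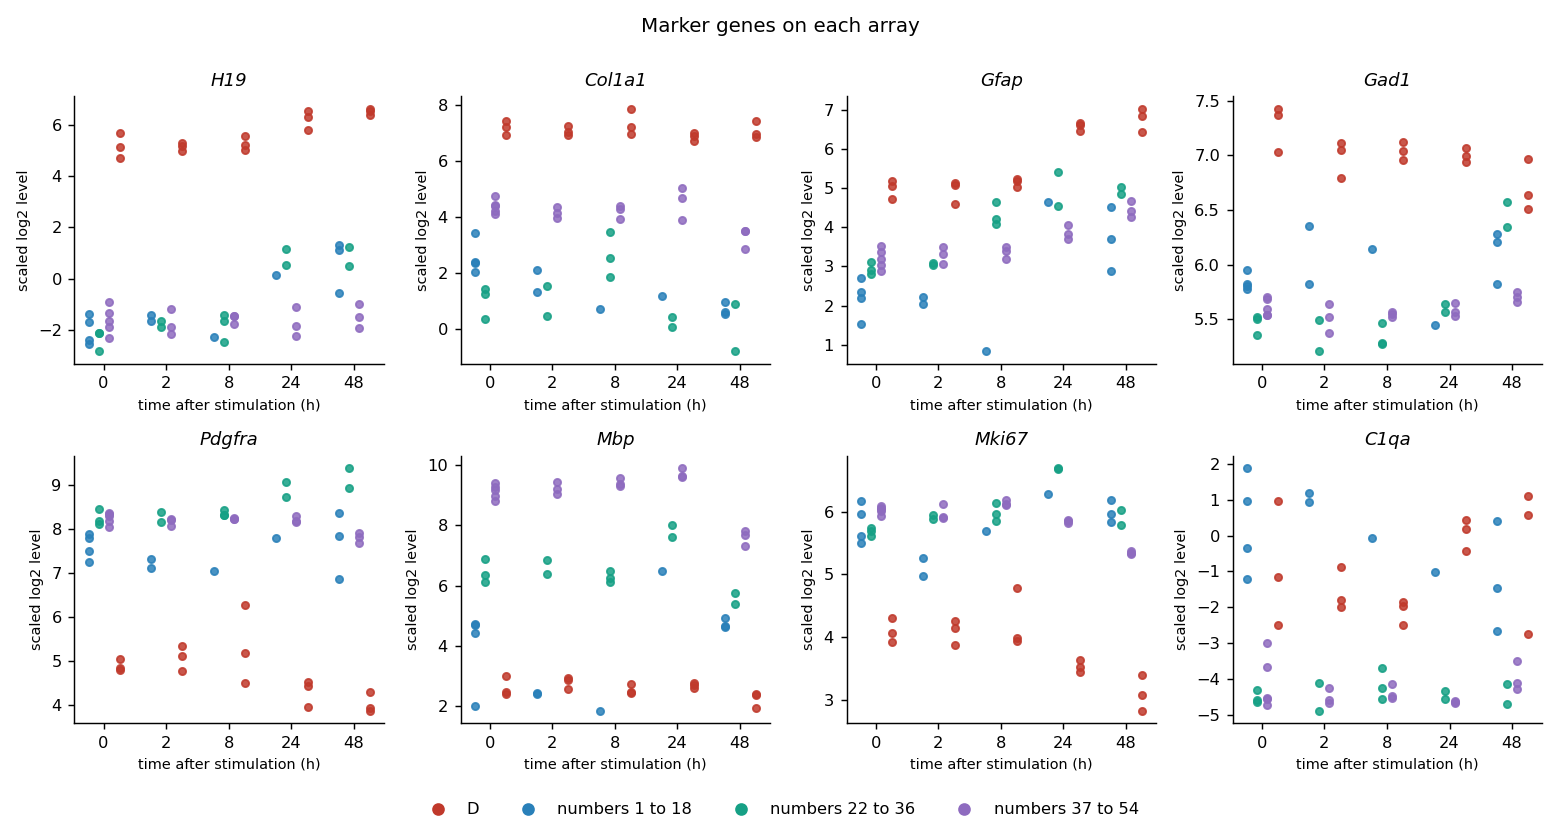
Levels of 8 genes (y axis, scaled log2) on each of the 55 arrays against the time after stimulation (x axis, h), with D arrays in red and the 3 runs of numbered arrays in other colours. H19 and Col1a1 are higher and Pdgfra and Mki67 lower on every D array than on any numbered array, whereas Mbp and C1qa overlap with numbers 1 to 18.

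Fibroblast genes gave some of the widest gaps in the other direction. Of 17 genes of fibroblasts and meninges, 11 were higher on the D arrays, 8 by at least 1, and none was lower, with a median of 0.79 and 8 higher with the run block. The mean level of the list was 2.89, 3.26 and 3.54 on the D arrays (lowest, median and highest) and 0.57, 1.22 and 1.73 on the numbered arrays, with no overlap. Col1a1, a chain of collagen type I, had a level of 6.70, 7.01 and 7.87 on the D arrays against −0.79, 2.47 and 5.03. These did not overlap, and the difference was 4.56 (SE 0.45, adjusted p = 3.99e-11), or 23.6-fold, although it was 5.44 against numbers 1 to 18 and 3.02 against 37 to 54. Col3a1, which forms fibrils with it, differed by 5.47 (SE 0.47, adjusted p = 7.31e-13), Col1a2 by 4.07 (SE 0.40, adjusted p = 2.54e-11) and Mgp, an inhibitor of calcification in matrix, by 5.82 (SE 0.64, adjusted p = 6.15e-10). The D and numbered levels of Mgp overlapped. In numbers 1 to 18, the only array of 24 h was at 6.58, against a mean of 1.76 at 0 h. Numbers 22 to 36 had means of 5.37 at 24 h and −0.47 at 0 h. Postn, which crosslinks collagen, differed by 3.81, the collagen-binding Lum by 2.53 and Col6a2, a chain of collagen type VI, by 3.95, and all 3 passed. Igf2, a growth factor that is imprinted together with H19, was higher on every D array than on any numbered array and passed as well (adjusted p = 1.66e-25).

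Not every member moved alike. Dcn, the small proteoglycan decorin, was at 4.70, 5.18 and 5.69 on the D arrays against 3.78, 4.60 and 5.65, overlapping throughout, and its difference of 0.48 (SE 0.13, adjusted p = 0.00239) was −0.13 against numbers 1 to 18 and did not pass with the run block (adjusted p = 0.278). Ptgds, made by the arachnoid, had a difference of −1.04 (adjusted p = 0.0654), and Foxc1, Slc6a13, Fbln1, Col5a1 and Fstl1 did not pass.

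Of 6 genes of ependymal cells, 5 were higher on the D arrays and none was lower, with a median of 1.20 and 4 higher with the run block. Tmem212, a membrane protein of ciliated cells, stood at 0.28, 0.66 and 0.94 against −5.24, −2.57 and −1.11 (lowest, median and highest), Dynlrb2, a dynein light chain of cilia, at 0.97, 1.41 and 1.89 against −2.71, −0.57 and 0.72. Neither gene overlapped between the groups, and the differences were 3.53 (SE 0.32, adjusted p = 5.28e-12) and 2.12 (SE 0.21, adjusted p = 5.40e-11). Tekt1, a protein of ciliary microtubules, differed by 1.21 (SE 0.20, adjusted p = 3.80e-06) and did not pass with the run block (adjusted p = 0.0513). Foxj1, the master regulator of motile cilia, differed by 0.25 (SE 0.15, adjusted p = 0.154) and did not pass, and no probe was matched to Ccdc153, the other defining marker.

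Of 9 choroid plexus genes 3 were higher and 3 lower, shares near those of all genes (28.9% and 22.9%), with a median of 0.14, and 1 each way with the run block. Ttr, the thyroid hormone carrier that is the main product of this tissue, differed by −2.21 (SE 0.47, adjusted p = 0.00016), but by −0.17 against numbers 1 to 18 and −3.31 against 37 to 54. Kcnj13, a potassium channel, differed by −0.40 (SE 0.36, adjusted p = 0.366). Sostdc1, a secreted inhibitor of Bmp and Wnt, was lower (adjusted p = 0.0367), at −2.21, −1.63 and −0.38 on the D arrays against −3.64, −0.08 and 1.48. With any 1 of 13 arrays left out, Sostdc1 did not pass (adjusted p up to 0.0794). With the run block neither Ttr nor Sostdc1 passed (adjusted p = 0.122 and 0.564). Against numbers 1 to 18 Kcnj13 and Sostdc1 differed the other way, by 1.43 and 0.88. Enpp2, which makes lysophosphatidic acid and is found in oligodendrocytes as well, was lower against each run (−2.28, SE 0.22, adjusted p = 3.47e-11), and Otx2, a transcription factor, was higher against each (1.10, SE 0.25, adjusted p = 0.000286).

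Among 10 endothelial genes, 4 were higher and 2 lower, against 28.9% and 22.9% of all genes. The median was 0.21, and none passed with the run block. Cldn5, the claudin of the blood-brain barrier, was well above background on 3 D and 3 numbered arrays only (difference 0.44, SE 0.32, adjusted p = 0.264), while the adhesion molecule Pecam1 differed by 0.98 (SE 0.19, adjusted p = 3.48e-05) and Tek, an angiopoietin receptor, by 0.57 (SE 0.14, adjusted p = 0.000614). The transporters Slco1a4 and Abcb1a differed by −1.07 (SE 0.19, adjusted p = 1.57e-05) and 1.11 (SE 0.24, adjusted p = 0.000242). Among 12 mural cell genes 3 were higher and 3 lower, shares near those of all genes (28.9% and 22.9%). The median was 0.12, and 2 were lower with the run block. The pericyte receptor Pdgfrb differed by 0.29 (SE 0.33, adjusted p = 0.492), with 1.69 against numbers 1 to 18 and −0.68 against 37 to 54. The smooth muscle actin gene Acta2 differed by 0.36 (SE 0.08, adjusted p = 0.000309), Tagln, another contractile protein, by −1.59 (SE 0.20, adjusted p = 2.04e-08), Notch3 by −1.30 (SE 0.15, adjusted p = 1.18e-09) and the channel gene Kcnj8 by 1.00 (SE 0.26, adjusted p = 0.0017). Acta2 and Kcnj8 did not pass with the run block (adjusted p = 0.213 and 0.391). Of 7 erythroid genes 2 were lower and none was higher, the median was −0.09 and none passed with the run block. The lower genes, both encoding chains of haemoglobin, were Hba-a1, with −0.50 (SE 0.19, adjusted p = 0.0266), and Hbz, with −0.32 (SE 0.11, adjusted p = 0.0175). Hba-a1 did not pass without 1 of 3 D arrays, sham at 2 or 48 h or 1 Hz at 48 h (adjusted p up to 0.0643). Alas2, the first enzyme of haem synthesis in red cells, differed by −0.09 (SE 0.16, adjusted p = 0.677) and Hbg1 by −0.09 (SE 0.13, adjusted p = 0.576).

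No pan-neuronal or excitatory gene differed by 1 or more. Of 15 pan-neuronal genes 7 were higher and 1 was lower, with a median of 0.31 and 1 higher with the run block. The defining markers did not pass: Rbfox3, the nuclear antigen NeuN, differed by 0.39 (SE 0.22, adjusted p = 0.148) and Map2, a protein of dendritic microtubules, by −0.10 (SE 0.14, adjusted p = 0.586). Snap25, of the machinery of vesicle release, was at 6.46, 6.75 and 7.18 on the D arrays against 5.50, 5.91 and 6.90 and differed by 0.75 (SE 0.10, adjusted p = 7.40e-08), Syp, the vesicle protein synaptophysin, by 0.80 (SE 0.15, adjusted p = 2.13e-05) and the enolase Eno2 by 0.60 (SE 0.10, adjusted p = 6.59e-06). Syp and Eno2 did not pass with the run block (adjusted p = 0.118 and 0.0901). Among 12 genes of excitatory neurons 8 were higher and 1 (Bcl11b) lower, with a median of 0.45, and 1 was higher with the run block. The vesicular glutamate transporters Slc17a7 and Slc17a6 differed by 0.41 (SE 0.15, adjusted p = 0.0196) and 0.29 (SE 0.08, adjusted p = 0.00161), and neither passed with the run block (adjusted p = 0.531 and 0.353). The transcription factors Neurod1 and Tbr1 differed by 0.74 and 0.90, of which Neurod1 passed with the run block (adjusted p = 0.00323).

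Genes of hippocampal subfields gave 3 higher and 2 lower of 13, both shares below those of all genes (28.9% and 22.9%). The median was −0.02, and 1 was higher with the run block. Prox1, the determinant of dentate granule cells, differed by 0.45 (SE 0.21, adjusted p = 0.0792) and Zbtb20, a regulator of hippocampal identity, by −0.14 (SE 0.18, adjusted p = 0.539), and neither passed, although Prox1 did without iTBS at 2 h, replicate 3 or the D array. Calb1, a calcium buffer, differed by 0.95 (SE 0.16, adjusted p = 4.32e-06), Ndst4, a heparan sulfate enzyme, by 1.33 (SE 0.21, adjusted p = 1.25e-06) and Bok, of the Bcl2 family, by 0.40 (SE 0.09, adjusted p = 0.00047), of which Ndst4 and Bok did not pass with the run block (adjusted p = 0.0608 and 0.115). Of 13 genes of immature neurons 4 were higher and 2 lower, against 28.9% and 22.9% of all genes. The list median was 0.15, and 1 was higher with the run block. Igfbpl1 differed by 1.05, Grin3a by 0.41 and the chloride importer gene Slc12a2 by −0.36. Of 31 genes of mature synapses and excitability 11 were higher and 4 lower, with a median of 0.24, and 2 and 1 with the run block. Nrgn, the postsynaptic protein neurogranin, differed by 1.51 (SE 0.23, adjusted p = 8.00e-07), Dlg4, the scaffold PSD-95, by 0.96 (SE 0.19, adjusted p = 5.57e-05) and Cplx1, a regulator of vesicle fusion, by 0.70 (SE 0.12, adjusted p = 3.35e-06), and the last 2 did not pass with the run block (adjusted p = 0.149 and 0.0953).

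Interneuron genes had the largest median difference of the neuronal lists. Of 20 tested, 13 were higher on the D arrays, 9 by at least 1, and 2 were lower, with a median of 0.66, and 9 were higher and none lower with the run block. The mean level of the list did not overlap, at 2.68, 2.98 and 3.14 on the D arrays (lowest, median and highest) against 2.05, 2.20 and 2.40 on the numbered arrays. Gad1 and Gad2, the enzymes that make the transmitter GABA, differed by 1.33 (SE 0.10, adjusted p = 1.79e-14) and 1.25 (SE 0.18, adjusted p = 1.77e-07). For Gad1 the levels were 6.51, 7.03 and 7.43 on the D arrays and 5.21, 5.62 and 6.57 on the numbered arrays, and these ranges overlapped only at their edges. Pvalb, the calcium buffer of fast-spiking interneurons, was at 0.33, 0.94 and 2.35 against −3.07, −1.16 and 1.12, above the numbered mean in all 15 groups, and differed by 2.49 (SE 0.25, adjusted p = 7.54e-11). Dlx1, a transcription factor of the ganglionic eminences in which interneurons arise, was above every numbered array at 3.78, 4.42 and 4.77 against 1.52, 2.55 and 3.71 (1.69, SE 0.20, adjusted p = 2.21e-09).

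Nkx2-1, which is made in the medial ganglionic eminence, differed by 1.60 (SE 0.16, adjusted p = 3.76e-11). Its target in that lineage, Lhx6, differed by 0.06 (adjusted p = 0.631) and Dlx2 by 0.14 (adjusted p = 0.603), and neither passed. The peptide genes Vip, Npy and Sst were higher by 1.20, 1.14 and 0.53, whereas Nr2f2, of interneurons of the caudal eminence, and Erbb4 were lower (−0.62 and −0.38). In the list of Cajal-Retzius cells, early neurons that guide the layering of the hippocampus, 5 of 9 were higher and none was lower (median 0.47), and 1 was higher with the run block. That gene was Calb2, the calcium buffer calretinin, which interneurons make as well, at 6.33, 6.82 and 7.35 on the D arrays against 3.98, 5.44 and 6.12, with no overlap and a difference of 1.70 (SE 0.16, adjusted p = 1.36e-11). Reln, the secreted guidance protein that defines these cells, differed by 0.08 (SE 0.07, adjusted p = 0.361) and Tp73 by 0.57 (SE 0.11, adjusted p = 4.88e-05), which did not pass with the run block (adjusted p = 0.194), and the transcription factors Nhlh2 and Ebf3 by 0.94 and 0.71. Without the D array of sham or of iTBS at 48 h, Ebf3 did not pass (adjusted p up to 0.0762).

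**Figure D3:**
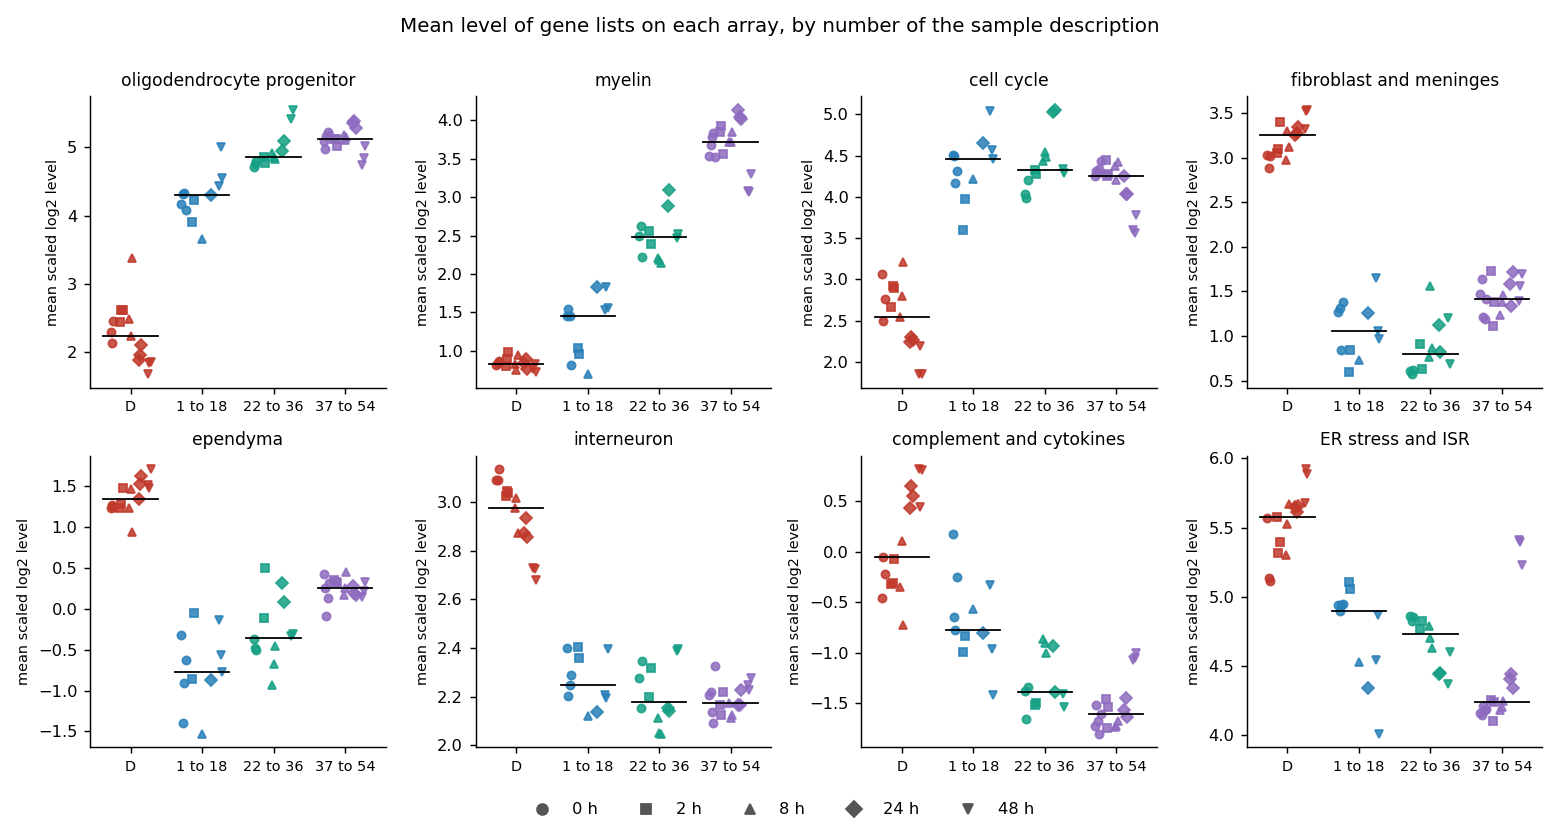
Mean level of 8 gene lists (y axis, scaled log2) on each array, for the D arrays and the 3 runs of numbers (x axis), with symbols for the time after stimulation and black bars for medians. D arrays lie apart from all numbered arrays for oligodendrocyte progenitors, cell cycle, fibroblasts and meninges, ependyma and interneurons, and overlap with some of them for myelin, complement and stress genes.

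Microglial genes differed in both directions. Of 16 tested, 8 were higher and 2 lower, with a median of 0.67, and 2 were higher and none lower with the run block. The genes that were lower were the defining markers, Cx3cr1, the fractalkine receptor (−1.20, SE 0.21, adjusted p = 9.12e-06), and Itgam, the integrin CD11b (−0.92, SE 0.21, adjusted p = 0.000444), and neither passed with the run block (adjusted p = 0.0905 and 0.279). C1qa, which makes a chain of the complement starter C1q, had a level of −2.76, −1.16 and 1.10 on the D arrays (lowest, median and highest), −2.66, −0.08 and 1.88 in numbers 1 to 18, −4.90, −4.45 and −3.69 in 22 to 36 and −4.73, −4.52 and −2.99 in 37 to 54. The D range overlapped that of the first run and lay above every array of the others, and the difference was 2.50 (SE 0.60, adjusted p = 0.000619) overall and −0.59 against the first run. Aif1, the marker Iba1, had a similar order, with 1.73 (SE 0.43, adjusted p = 0.00105) overall and −0.24 against numbers 1 to 18. With the run block, neither C1qa nor Aif1 passed (adjusted p = 0.145 and 0.249). Against single runs the list median was −0.31, 0.94 and 0.98 in the order of the numbers.

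Tmem119 went another way, at 0.15, 0.68 and 1.69 on the D arrays and −4.86, −3.37 and −1.22 on the numbered arrays without overlap, a difference of 4.14 (SE 0.22, adjusted p = 2.76e-19) that ranged from 3.95 to 4.49 over the runs. It is known as a marker of microglia and is made by bone-forming and stromal cells as well. The receptor genes P2ry12 and Csf1r differed by −0.29 and 0.00 and did not pass.

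Of 17 complement and cytokine genes, 15 were higher on the D arrays and none was lower, with a median of 1.25, and 6 were higher with the run block. After normexp and quantile normalization 13 were higher, with a median of 0.28. Serping1, the inhibitor of C1, was at 1.48, 2.82 and 5.73 on the D arrays against −1.52, 0.21 and 3.21 (lowest, median and highest), overlapping, with a difference of 2.86 (SE 0.19, adjusted p = 4.88e-16). Cxcl10, an interferon-induced chemokine, differed by 2.90 (SE 0.34, adjusted p = 3.51e-09). The classical pathway genes C1s and C1r, the central component C3 and the factor gene Cfb were higher by 1.57, 0.93, 1.25 and 1.46. The chemokine genes Ccl2 and Cxcl1 did not pass (0.70 and 0.16). These genes are made by astrocytes, fibroblasts and microglia alike, and the part of each was not tested. Of 18 interferon and antigen presentation genes 8 were higher and 2 lower, among them Mx1, an inhibitor of viral replication, at −0.78, with a median of 0.39, and 3 and 1 with the run block. Ifit2, a restriction factor of viral RNA, was well above background on 15 D and 6 numbered arrays and differed by 2.86 (SE 0.27, adjusted p = 6.94e-12), Bst2, which tethers budding viruses, by 2.48 (SE 0.18, adjusted p = 3.36e-15) and Rsad2, the enzyme viperin, by 1.65 (SE 0.28, adjusted p = 5.39e-06).

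Genes of the endoplasmic reticulum (ER) stress and integrated stress responses, by which cells with unfolded protein or missing amino acids slow translation and make chaperones and amino acid enzymes, were mostly higher. Of 20 tested 14 were higher, 7 by at least 1, and 2 were lower, with a median of 0.58, and 5 and 1 with the run block. Trib3, a pseudokinase induced by the factor Atf4, was at 3.30, 3.79 and 4.31 on the D arrays against −1.39, 0.30 and 2.68 on the numbered arrays (lowest, median and highest). These ranges did not overlap, and the difference was 3.33 (SE 0.25, adjusted p = 1.88e-14), between 3.19 and 3.48 over the runs. Nupr1, a stress-induced chromatin protein, was at 1.39, 2.18 and 3.44 against −3.48, −1.33 and 1.77 and differed by 3.86 (SE 0.31, adjusted p = 1.63e-13). Atf3, an early stress factor, was at 4.21, 5.25 and 6.46 against −0.59, 2.18 and 6.30, a wide overlap, and its difference of 3.11 (SE 0.60, adjusted p = 3.65e-05) did not pass with the run block (adjusted p = 0.151). Its mean in numbers 37 to 54 went from 0.15 at 0 h to 4.11 at 48 h, and in numbers 22 to 36 from 4.94 to 0.58. Ddit3, the factor CHOP, was higher by 1.82 and the chaperone gene Hspa5 by 0.68, whereas Phgdh and Psat1, which make serine and which glia express strongly, were lower (−0.79 and −0.37).

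Atf4 and its partners of the C/EBP family bind a joint element, TGATGCAA. Its letters were found on either strand in 3 of the 19 promoter windows matched to the 20 stress genes, those of Chac1, Herpud1 and Nupr1, and in 0.74% of all windows. The window of Nupr1 is shown because this gene had the largest difference of the list, from chr1:190645852-190646151 of GRCr8 on the minus strand, with the element, here on the opposite strand, in capitals.
Nupr1: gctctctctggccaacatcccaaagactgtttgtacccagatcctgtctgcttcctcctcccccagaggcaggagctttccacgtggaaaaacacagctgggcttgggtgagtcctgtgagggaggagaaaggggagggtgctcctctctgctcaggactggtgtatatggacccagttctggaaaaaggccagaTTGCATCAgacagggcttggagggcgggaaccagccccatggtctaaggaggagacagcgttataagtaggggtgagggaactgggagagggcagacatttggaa

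Activity-regulated genes, which neurons switch on within minutes to hours of firing, varied with run and time in the numbered arrays. Of 31 tested, 14 were higher and 2 lower on the D arrays, with a median of 0.28, and 3 and 1 with the run block. In the arrays of 0, 2 and 8 h 4 were higher and 2 lower, and in those of 24 and 48 h 19 and 1, where 38.3% and 39.6% of all genes passed. No member passed the test of a D difference that varied with time. Fosb, a part of the AP-1 factor, was at −0.63, 0.26 and 1.01 on the D arrays against −4.81, −2.55 and 2.42 (lowest, median and highest), so its D range lay inside the wider numbered range. Its difference was 2.42 (SE 0.41, adjusted p = 4.17e-06), that of Fos 1.76 (SE 0.44, adjusted p = 0.000973) and that of Dusp1, a phosphatase of MAP kinases, 1.58 (SE 0.20, adjusted p = 2.21e-08), of which Dusp1 passed with the run block (adjusted p = 0.0133) and Fosb and Fos did not (adjusted p = 0.1 and 0.307). In numbers 1 to 18, Fosb had a mean of 1.98 at 2 h, and the only array of 24 h was at −3.16. The D arrays had means of −0.33 and 0.67 at these times. Arc, a synaptic activity gene, differed by −0.86 (adjusted p = 0.0943), Bdnf, a neurotrophin, by 0.93 and Npas4, a factor specific to neurons, by 1.26, and the last 2 passed.

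Of 68 oxidative phosphorylation genes 52 were lower on the D arrays and 1 was higher, with a median of −0.36 and no member past a difference of 1, and 5 were lower with the run block. The largest differences were those of the ATP synthase genes Atp5mc2 (−0.91, SE 0.12, adjusted p = 1.64e-08) and Atp5f1a (−0.65, SE 0.12, adjusted p = 1.87e-05) and of Cox7a2, of cytochrome oxidase (−0.61, SE 0.09, adjusted p = 4.72e-07), of which Atp5f1a did not pass with the run block (adjusted p = 0.126). Of 24 genes of cholesterol and fatty acid synthesis 18 were lower and 1 was higher (Fads1), with a median of −0.59 and 6 lower with the run block. Against the single runs the median was −1.01, −0.90 and −0.14 in the order of the numbers, so the gap was small against 37 to 54. Stard4, a cholesterol carrier, differed by −1.46 (SE 0.27, adjusted p = 2.85e-05), Lss, which closes the sterol rings, by −1.02 (SE 0.23, adjusted p = 0.000287) and Msmo1, a later enzyme, by −0.99 (SE 0.22, adjusted p = 0.000276), which did not pass with the run block (adjusted p = 0.0783). Hypoxia and glycolysis genes gave 6 higher and 1 lower of 22, against 28.9% and 22.9% of all genes. Their median was 0.11, 1 was higher with the run block, and Adm (0.98), Egln3 (0.88) and Ankrd37 (0.68) led the list. Of the Y-linked genes tested, Ddx3y differed by 0.47 (SE 0.11, adjusted p = 0.00034), which did not pass with the run block (adjusted p = 0.297), and Eif2s3y by 0.01 (SE 0.11, adjusted p = 0.924). The median of these 2 genes was 0.24.

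**Figure D4:**
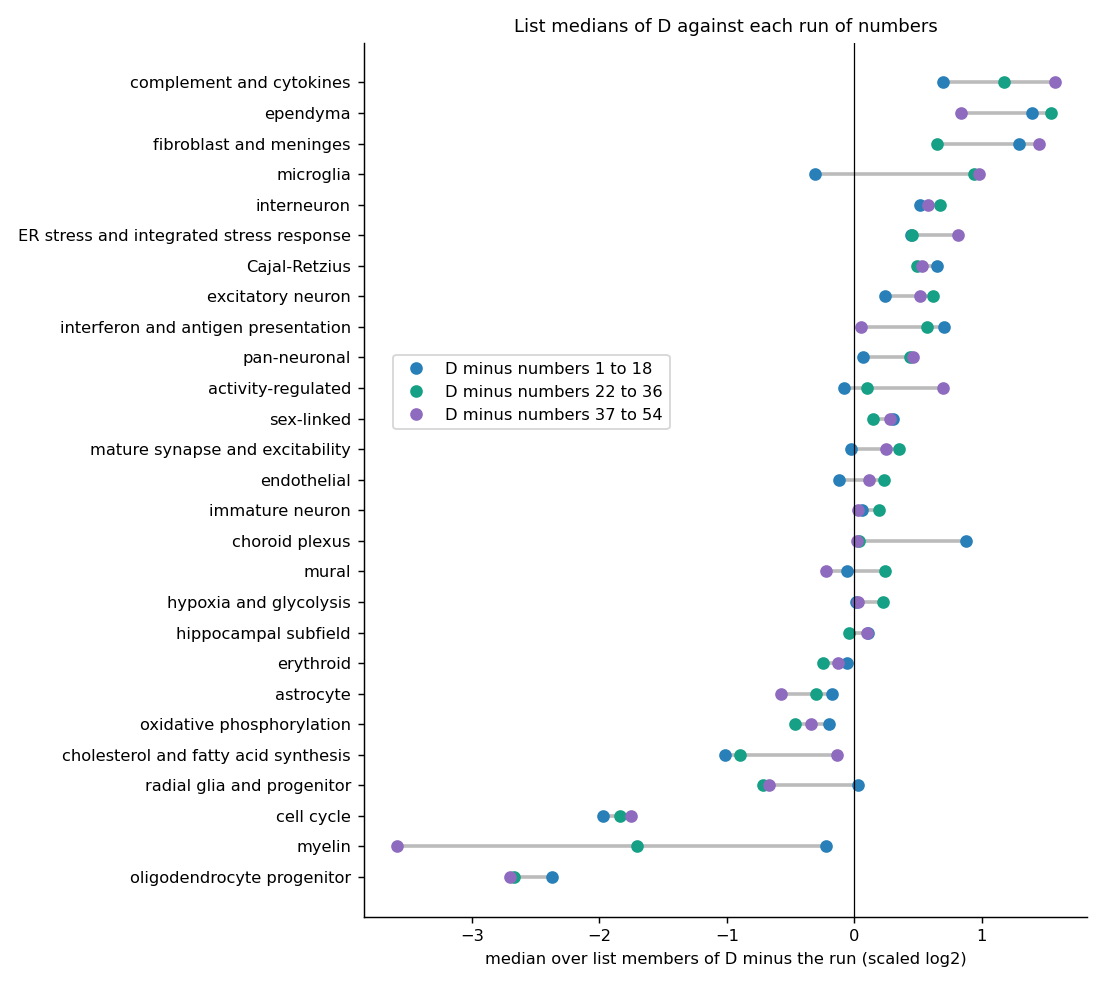
Median over the members of each list of the difference between D and each run of numbers (x axis, scaled log2), with grey lines joining the 3 runs. The cell cycle medians lie between −1.97 and −1.75, whereas those of myelin lie between −0.22 and −3.59 and those of microglia on both sides of 0.

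Among all genes well above background on every D array or on every numbered array, the largest positive difference was that of H19, an imprinted long noncoding RNA made in embryonic mesenchyme. It was at 4.72, 5.55 and 6.63 on the D arrays (lowest, median and highest) and −2.83, −1.63 and 1.33 on the numbered arrays, a difference of 6.90 (SE 0.24, adjusted p = 7.53e-25), or 120-fold. Every D array was above every numbered array. Lhx8, a transcription factor of the ventral forebrain, and Cilp, a matrix protein of cartilage, were well above background on all 15 D arrays and on no numbered array, where they were at least 31-fold and 23.3-fold lower (adjusted p = 4.93e-34 and 1.74e-33). Both genes entered the tests only through D arrays, so their p-values are no independent support. Lhx8 was at 0.39, 1.21 and 1.47 on the D arrays. Fap, a protease of activated fibroblasts, differed by 5.47 (SE 0.20, adjusted p = 4.49e-24) and Alx1, a factor of the facial mesenchyme, by 4.15 (SE 0.19, adjusted p = 5.25e-21). Of the 40 numbered arrays, Fap was well above background on only 1 and Alx1 on only 3. Gpnmb, a glycoprotein of phagocytes and matrix-forming cells, differed by 4.32 (SE 0.29, adjusted p = 3.67e-16) and Ifi27l2b, an interferon-induced gene, by 4.35 (SE 0.20, adjusted p = 1.52e-21). The other members of the top 10 were Mgp, Col3a1 and Col1a1, given above.

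In the other direction, Evi2a, a gene within an intron of Nf1 that oligodendrocytes express, was at −3.66, −1.66 and −0.43 on the D arrays against 0.91, 3.43 and 4.56 and differed by −4.97 (SE 0.32, adjusted p = 1.32e-16). The levels did not overlap. Pnlip, known as the pancreatic lipase, differed by −4.88 (SE 0.47, adjusted p = 1.44e-11), Lims2, an adaptor of focal adhesions, by −4.84 (SE 0.39, adjusted p = 8.95e-14), and the orphan receptor gene Gpr20 by −4.50 (SE 0.24, adjusted p = 3.90e-19). On the D arrays these genes were dim, with Pnlip, Lims2 and Gpr20 well above background on only 5, 6 and 10 of 15. Fa2h, which makes hydroxylated myelin lipids, differed by −4.19 (SE 0.42, adjusted p = 6.60e-11) and Plxnb3, a semaphorin receptor of oligodendrocytes, by −4.26 (SE 0.38, adjusted p = 3.24e-12), and the list was completed by Cldn11, Matn4, Mbp and Bcas1. Pnlip, Fa2h and Plxnb3 differed least against numbers 1 to 18, by −3.00, −2.24 and −2.79, and most against 37 to 54, by −6.28, −5.38 and −5.40.

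Whether the D difference was the same at every time was asked with an F test of the series by time terms, which 435 probes passed (1.22%) and 191 genes (1.37%). Without 1 of 4 D arrays the count of probes fell, to 271 without 1 Hz at 24 h, 246 without 1 Hz at 48 h, 262 without iTBS at 24 h and 276 without iTBS at 48 h. In 188 of the 191 genes the differences at 24 and 48 h both lay on 1 side of those at 0, 2 and 8 h, in 114 above and in 74 below. The 191 genes were chosen by a test of these same differences, and the share over all genes was not taken. The count therefore describes the chosen genes and is no further support. The genes with the smallest p were looked at after their values were seen. Pou4f3, a transcription factor of sensory cells, was at −5.23, −4.60 and −3.81 (lowest, median and highest) on the 9 D arrays of 0, 2 and 8 h and at 0.03, 0.41 and 0.81 on the 6 of 24 and 48 h. The numbered arrays had −5.39, −4.98 and −3.22, none of them well above background at any time. The early and the late D arrays did not overlap. Pou4f3 entered the tests only through D arrays and was chosen by its p. Its adjusted p of 2.35e-15 (F test of the series by time terms) is therefore no independent support. Over all 15 D arrays, of which 6 were well above background, the mean of Pou4f3 was 2.32-fold above the bound for the numbered arrays. Its D difference (adjusted p = 3.53e-06, limma) did not pass with the run block (adjusted p = 0.121).

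Nxf3, of the family of RNA export factors, was likewise well above background on 6 D arrays and on no numbered array, with levels of −5.27, −4.30 and −3.35 on the early and −1.50, −0.93 and −0.62 on the late D arrays. Adgrl4, an adhesion receptor of endothelium, and Pdk4, which blocks pyruvate oxidation, had the same pattern of detection. Like Nxf3, they entered the tests only through D arrays. Among genes measured on most numbered arrays, Myoc, the secreted protein myocilin, had means of −1.53 at 8 h and 1.93 at 24 h on the D arrays, against −1.53 and −1.13 in numbers 37 to 54. Its D difference was 0.80 at 0 h and 3.01 at 48 h (adjusted p = 3.24e-07). That of Asmt, the last enzyme of melatonin synthesis, was 0.34 and 2.71 (adjusted p = 3.52e-07), and that of Plag1, a zinc finger factor of growth, −0.14 and 1.96 (adjusted p = 6.13e-08). Each of these was higher in D at the late times. Vxn, a gene of neuronal differentiation, went the other way, with a D difference of −0.32 at 0 h and −1.64 at 48 h (adjusted p = 2.42e-05). D arrays of the early times correlated with those of the late times by 0.961 to 0.984 over all probes tested, and the late arrays with each other by 0.981 to 0.992. The D numbers run in the order of the times, so that time and place in the D series cannot be told apart. The slides of the D arrays follow the times too, from slides 1 and 2 at 0 h to slide 7 at 48 h. Each slide holds numbered arrays of 1 run only, so the change over time cannot be told apart from slide either.

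**Figure D5:**
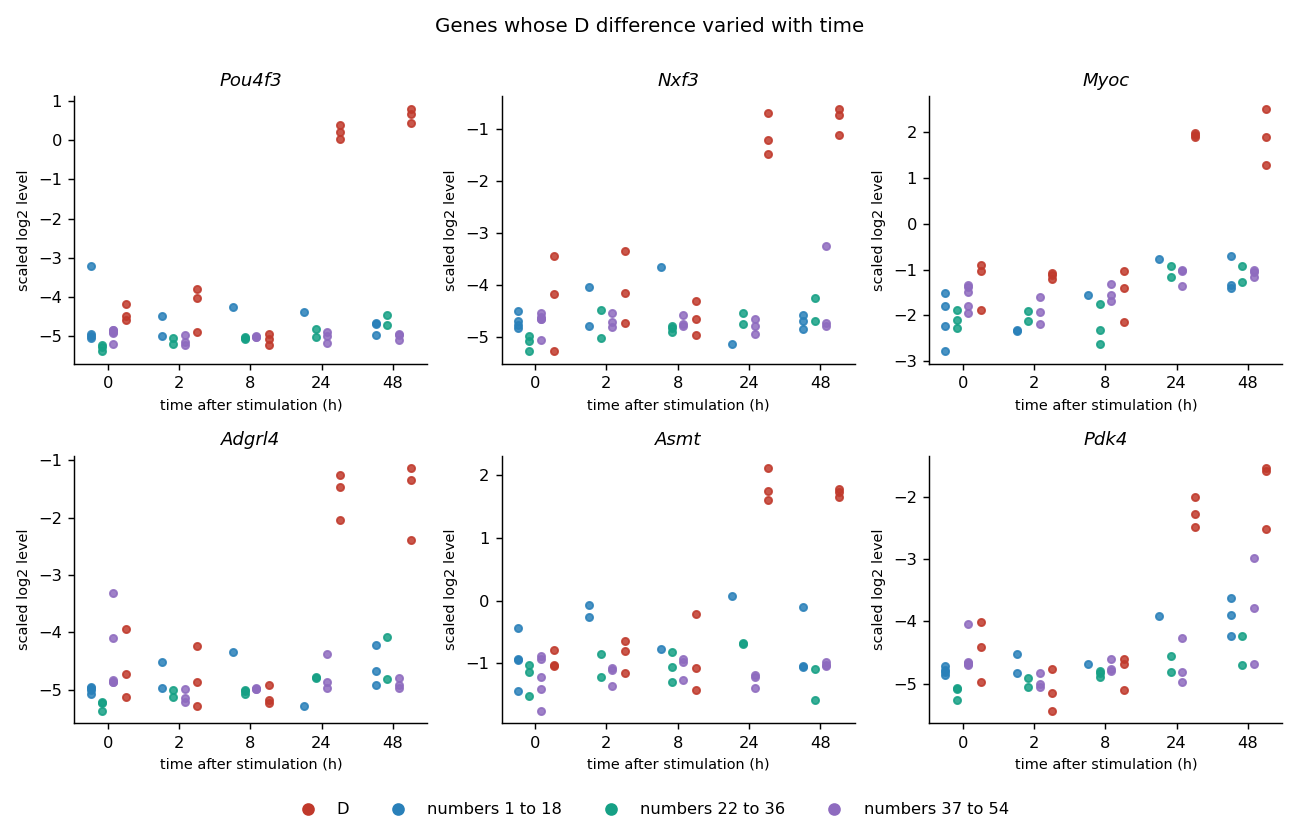
Levels of 6 genes (y axis, scaled log2) on each array against the time after stimulation (x axis, h), chosen after their values were seen from those with the smallest p for a D difference that varied with time. D arrays (red) of 24 and 48 h lie above those of 0, 2 and 8 h in each gene, and the numbered arrays show no such step of that size.

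Of the genes named by rule, Matn4 (adjusted p = 0.0374) and Abcb1a (adjusted p = 0.0351) passed the test over time. The times were also fitted apart. In the arrays of 0, 2 and 8 h 26 cell cycle genes, 10 progenitor genes and 7 myelin genes were lower and 10 fibroblast genes and 14 interneuron genes higher, and in those of 24 and 48 h the counts were 25, 10, 7, 12 and 10. Microglial genes gave 2 higher at the early and 11 at the late times, and mature synapse genes 16 and 4. Of all genes, 38.3% and 39.6% passed in these fits. No microglial, mature synapse, myelin or fibroblast gene passed the F test of a D difference that varied with time, and 1 cell cycle, 1 interneuron and 2 progenitor genes did.

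No probe passed the test of whether the D difference varied between sham, 1 Hz and iTBS arrays (0 of 35699 probes, 0% called, with 268 at an unadjusted p under 0.05). These 268 are fewer than that threshold gives by chance among independent arrays. With 1 D array in each group of arm and time, the test between arms rests on 5 D arrays in each arm. The count of 0 therefore does not show that the D difference was alike in the arms. Fitted within an arm, 6059 probes passed in sham, 5382 in 1 Hz and 6923 in iTBS arrays.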

How the data were processed

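RNA from 56 dishes was hybridised singly to 1-colour Agilent arrays of 62976 spots, 58717 of them no controls, designed on build rn4 per the file headers. The deposited intensities are processed signals made by the authors with Feature Extraction 12.0.3.1, background corrected and not normalized between arrays. The deposited score table holds the authors' z-scores of log10 signals within each array, which recomputed z-scores matched within 0.005.

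Log2 processed signals were averaged over the spots of a probe without outlier flags, turned into z-scores within each array as in the study's methods, and multiplied by the median array SD of 4.06. Of 45598 probes, 420 held no value. Symbols came from accessions matched to a RefSeq GRCr8 table, which named 21109 probes (46.3%) and 16581 genes, each represented by its brightest probe. Probes well above background on at least 3 of 55 arrays were tested, 35699 in all. A probe could meet this filter through D arrays alone or numbered arrays alone, and its p is then no independent support. limma 3.58.1 in R 4.3.3 fitted the 16 groups of arm and time and a term for D, with 38 residual and 2.85 prior degrees of freedom. Interactions of that term with time and with arm were tested by F tests, and differences from each run came from 1 fit with the 3 runs as terms. Alternatives were the 75th percentile, quantile normalization, normexp with an offset of 50 on median signals (mean signals were not used here), the authors' z-scores, other filters, slide, replicate and run blocks, and subsets of arrays. On simulated data the test of D found 100% of differences of 2, 86.25% of 1 and 45% of 0.5, that over time 67.5%, 26.25% and 2.5%, and that over arms 80%, 32.5% and 3.75%. The simulated arrays were independent, without an effect of the run, and few probes were given a difference. These rates therefore do not hold for arrays that correlate within a run.

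The comparison and the 27 gene lists, of whose 527 symbols 28 had no named probe and 25 no probe tested, were chosen with earlier results of these data known. Named genes were the defining markers of each list, up to 3 other members with the largest differences, and the 10 largest differences in each direction among genes that passed and were well above background on every D or every numbered array. This made 124 genes, and others are given as members of a list or as chosen after their values were seen. Residuals of arrays with the same replicate number correlated by 0.160 on average and by −0.462 at the lowest, against −0.056 on average for different numbers. Replicate numbers were not taken as pairs. All D arrays carry replicate number 3 or 4, so this number is partly tied to D. A few members of the lists are counted but not reported here by name.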

Additional observations from a re-analysis of the deposited data

Results flagged for a closer look

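In groups of 4 arrays, 5 of 40 comparisons of an array with the rest of its group held a value far from the others. All 5 were D arrays. Each group except the untreated controls held 1 D array, and most measures screened already lay apart between D and numbered arrays. The flags therefore largely restate that split. The comparisons repeat the same groups, so a chance rate of about 1 in 20 groups for independent comparisons does not apply. At 48 h after 1 Hz, 81.1% of spots were well above background on the D array, against 71.1% to 71.7% on the other 3. The first principal component was −63.9 on the D array of 1 Hz at 8 h (27.9 to 43 on the others) and −79.2 on that of sham at 0 h (22.8 to 40.6). The mean level of the cell cycle list was 2.54 on the D array of 1 Hz at 8 h (4.21 to 4.43) and 2.77 on that of sham at 0 h (4.20 to 4.43). Among the genes named by rule, the D difference varied with time for Matn4 (adjusted p = 0.0374, limma) and Abcb1a (adjusted p = 0.0351).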

How the results depend on the processing

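The number of probes that passed, 16992, became 3738 with the run as a random block, 8794 with all 56 arrays, 9694 against numbers 1 to 18 alone, and 6059, 5382 and 6923 in sham, 1 Hz and iTBS arrays alone. Those past a difference of 1, 2946, became 1022 after normexp and quantile normalization and 4642 at 24 and 48 h alone. Of the probes that passed, 54.4% were higher in D, 44.4% without a filter on dim probes and 65.0% with all 56 arrays. The count for a change over time, 435, became 661 after normexp, 702 without a filter, 6438 with slide as a block and 83 with all 56 arrays. Slide and time run together among the D arrays, which limits the fit with slide as a block. Leaving out 1 array gave 15938 to 17761, 2879 to 3070 and 246 to 521 for these 3 counts and 0 throughout for the arms. The causes were not tested. With the replicate number as a block, although it was not taken to pair arrays and is partly tied to D, 8700 probes passed, 3201 past a difference of 1.

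Of the 124 genes named by rule, 111 passed, and 70 of these passed with the run block. Over all genes, 51.8% and 12.9% passed in these fits. The rule favours large differences and genes that passed, so these counts and the next follow in part from the choice. Of all 121 named genes that passed, 90 had the same sign on each of the 7 slides. Against numbers 1 to 18 alone the difference changed sign for Slc17a7 (−0.18), C1qa (−0.38), Dcn (−0.043), Ttr (0.13), Kcnj13 (1.50) and Sostdc1 (1.06). It did so against 37 to 54 alone for Pdgfrb (−0.64) and Foxj1 (−0.20), at 0, 2 and 8 h for Plag1 (−0.14) and at 24 and 48 h for Sostdc1 (0.065). The list median of mural genes was −0.03 with quantile normalization and −0.04 with normexp, where endothelial (−0.02) and choroid plexus genes (−0.05) also changed sign. Normexp also made several list medians more than 1.5 times smaller, those of ependyma (0.77), complement and cytokines (0.28), microglia (0.20), interferon (0.13), activity-regulated (0.10), Cajal-Retzius (0.08), astrocyte (−0.14), oxidative phosphorylation (−0.17) and oligodendrocyte progenitor genes (−1.72). Dim signals limit the D differences of genes seen on few arrays.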
